A study of Mus musculus with 16 samples.

Results

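Choroid plexus epithelial genes are the genes that the epithelium lining the ventricles' choroid plexus expresses strongly. Their transcripts were described here in RNA-Seq of the mouse dorsal hippocampus, for 10 genes among the 35328 of the count table: Ttr, Slc4a5, Slc16a8, Kcne2, Clic6, Folr1, Prlr, Kl, Ace and Tmem72. The genes were found in the table through their Ensembl identifiers. They were chosen by earlier results of these same counts. Tmem72 and Prlr had been selected on their small p-values for caffeine against water in the home cage, Ace on its lower level after learning in water-drinking mice, and Ttr after its values had been seen. The levels and their differences between those groups are therefore given as a description. Only caffeine against water after learning was read as a test, and its groups share libraries with the comparisons that chose the genes.

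The study used 16 C57Bl6/J mice, 1 library for each, in 4 groups of 4. Mice drank water or caffeine at 0.3 g/L for 2 weeks from 8 to 9 weeks of age. Home cage mice were not trained, and learning mice were trained for 3 days in the Morris water maze, a spatial memory task, and were killed 1 h after the last trial. The tissue was bulk dorsal hippocampus from individual animals of the inbred strain, so each library is a separate mouse. Libraries held between 23078094 and 49949281 counted reads, and the summed level of 8 hippocampal neuron markers lay between 4822 and 5963 CPM in every library, with none of the 8 at 0. CPM are the reads of a gene per megaread of the scaled library total. No pair of libraries within a group agreed within sampling noise over the genes. The labels name no batch.

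The choroid plexus secretes cerebrospinal fluid. Its epithelial cells carry ions, folate and thyroid hormone between blood and fluid, and they make transthyretin, the carrier protein encoded by Ttr, in large amounts. The plexus lies in the ventricle next to the hippocampus, and how much of it each dissected piece held was not measured separately. Hippocampal neurons and vessels also express some of the genes named here, Kl and Ace among them. In bulk tissue, fewer cells of a type and less RNA per cell cannot be told apart. A change in the amount of plexus would move all plexus transcripts by one factor and leave their ratios as they were, while RNA made elsewhere would keep a gene up where Ttr is low.

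Promoter sequences are shown for 4 of the genes, a pair with steep slopes on Ttr (Kcne2, Tmem72) and the pair with the flattest slopes (Kl, Ace), as given further on. They come from RefSeq on build GRCm38.p6, whose table matched 7 of the 10 genes; Ttr, Clic6 and Folr1 are named only. Each is the part of the 250 bases before the annotated start that lies upstream of the gene's own exons, 5′ to 3′ on the gene's strand. Capitals mark matches, on either strand, to 2 motifs. One is TAATCC, the core recognised by OTX homeodomain factors. The other is the TATA box in the form TATAAA.
Kcne2, plus strand, chr16:92292139-92292388: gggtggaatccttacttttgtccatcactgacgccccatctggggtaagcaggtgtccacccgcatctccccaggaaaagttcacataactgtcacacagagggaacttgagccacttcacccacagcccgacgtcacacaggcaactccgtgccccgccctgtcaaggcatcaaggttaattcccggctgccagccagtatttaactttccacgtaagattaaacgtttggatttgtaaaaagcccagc
Tmem72, minus strand, chr6:116716914-116717008: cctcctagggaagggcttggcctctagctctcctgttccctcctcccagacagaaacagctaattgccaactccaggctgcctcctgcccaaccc
Kl, plus strand, chr5:150952357-150952606: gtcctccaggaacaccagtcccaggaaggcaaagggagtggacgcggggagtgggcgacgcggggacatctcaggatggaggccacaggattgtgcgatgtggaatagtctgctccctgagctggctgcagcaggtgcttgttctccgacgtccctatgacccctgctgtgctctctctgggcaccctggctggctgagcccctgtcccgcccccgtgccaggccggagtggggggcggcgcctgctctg
Ace, plus strand, chr11:105967698-105967944: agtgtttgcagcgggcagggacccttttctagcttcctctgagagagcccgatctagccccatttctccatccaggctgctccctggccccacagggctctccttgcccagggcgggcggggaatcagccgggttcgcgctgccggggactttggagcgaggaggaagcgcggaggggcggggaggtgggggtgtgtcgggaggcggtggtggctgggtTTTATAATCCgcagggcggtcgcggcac
TAATCC was in 1 of 11 windows of 250 bases before the starts of the 7 genes, that of Ace, where it overlapped a TATAAA match on the other strand. Of all 32851 RefSeq windows of this length 6.25% held it. TATAAA was in 2 of the 11 windows, those of Ace and Slc4a5, against 12.4% of all windows. The match of Ace lay at −31 to −26 from the annotated start and that of Slc4a5 at −127 to −122. The Slc4a5 match is past the first 65 bases of its window, the part upstream of the gene's own exons. Neither motif was in the windows of Kcne2, Tmem72, Kl, Prlr or Slc16a8.

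Ttr was by far the most abundant of these transcripts per length of message. The table's gene on chromosome 18 (20665280 to 20674321, plus strand, Ensembl ENSMUSG00000061808, coordinates from GENCODE M21) had 245, 1026, 812 and 2161 CPM in the home cage water replicates 6, 8, 11 and 20. In home cage caffeine it had 144, 421, 207 and 188 CPM, in learning water 355, 114, 147 and 363 CPM, and in learning caffeine 154, 92.9, 140 and 74.0 CPM. The levels spanned 29.2-fold over the 16 libraries. Replicates 8, 11 and 20 of home cage water stood above every other library, and replicate 6 lay inside the range of the home cage caffeine and learning water groups. The groups averaged 1061 ± 804, 240 ± 123, 245 ± 133 and 115 ± 38.1 CPM (SD, n = 4), for water and then caffeine in the home cage and water and then caffeine after learning. Home cage caffeine and learning water did not differ beyond their spread. Home cage water and learning caffeine did not overlap, and every other pair of groups did. Per kilobase of exon, Ttr averaged 895 CPM in home cage water, against 5.83 for Kl, 5.46 for Clic6, 4.89 for Ace and 0.640 for Slc16a8 on the same scale.

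**Figure D1:**
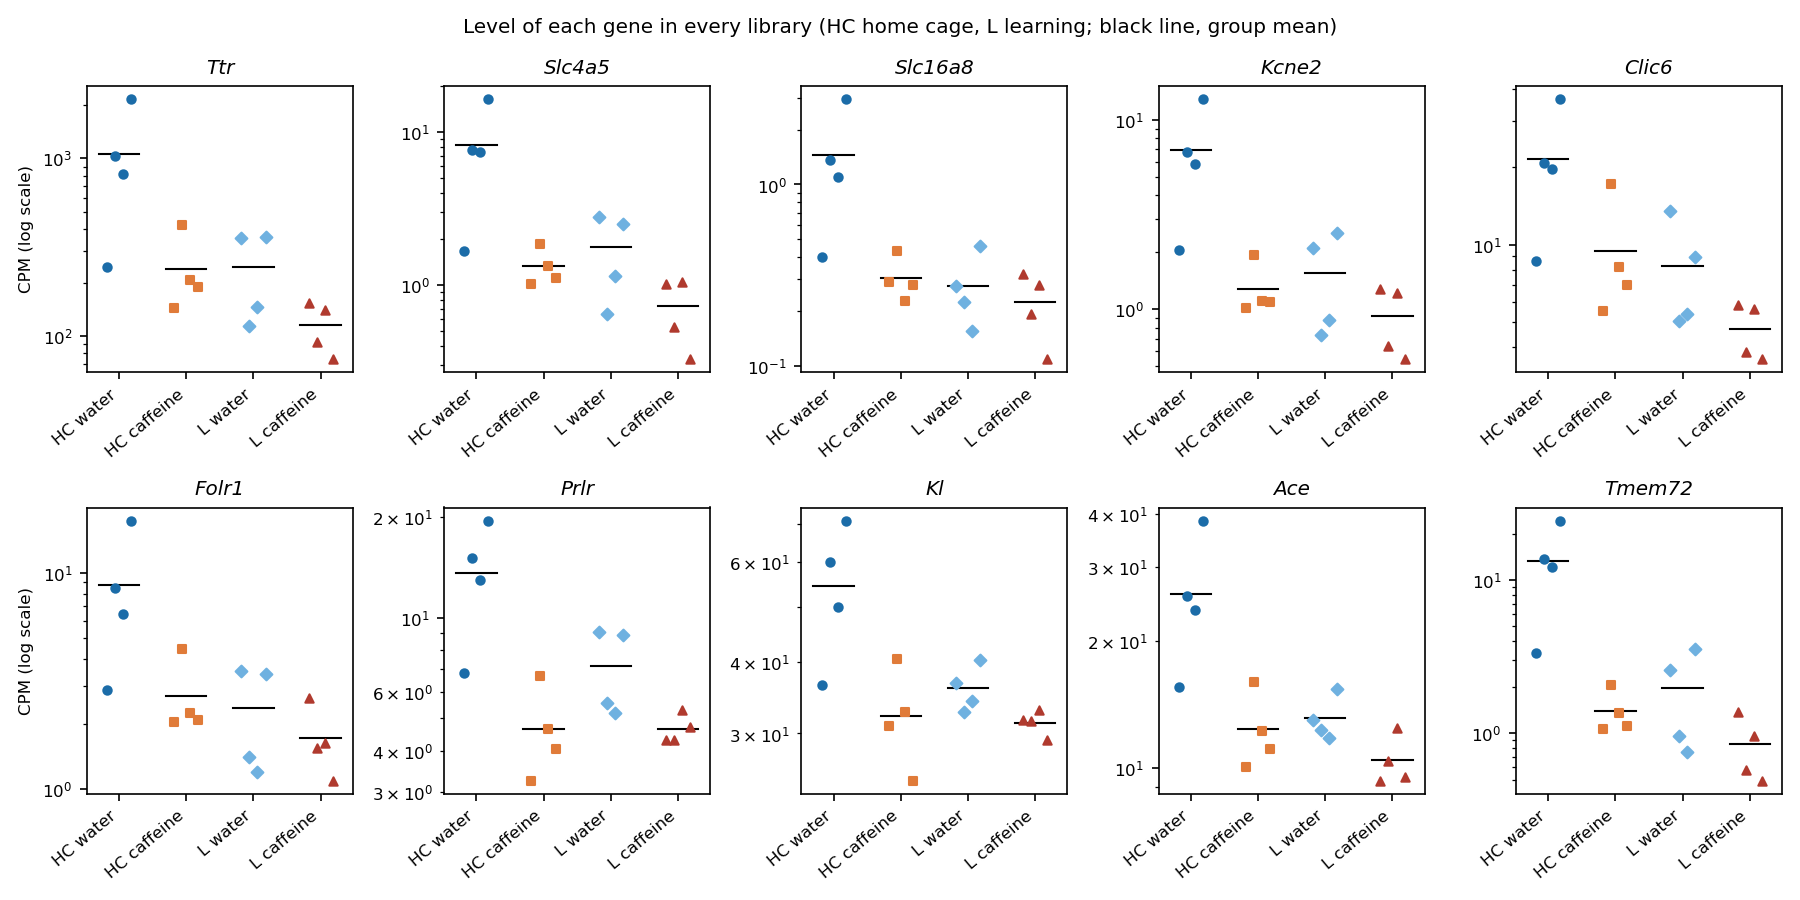
Level of each of the 10 genes in every library, in CPM on a log scale, with 4 points per group and a black line at the group mean. Home cage water was highest for all 10 genes, and replicate 6, with 245 CPM of Ttr, was its lowest library for every gene.

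Among the ion and metabolite carriers, Slc4a5 encodes a sodium bicarbonate cotransporter and Kcne2 a potassium channel subunit. Slc4a5 had 1.67, 7.71, 7.37 and 16.5 CPM in home cage water replicates 6, 8, 11 and 20, and 1.02, 1.85, 1.33 and 1.12 CPM in home cage caffeine. After learning it had 2.79, 0.646, 1.14 and 2.51 CPM with water and 1.01, 0.535, 1.04 and 0.327 CPM with caffeine. The same 3 home cage water libraries were high, as for Ttr, and the lowest learning caffeine library was again replicate 40. Kcne2 had 2.06, 6.82, 5.86 and 12.9 CPM in home cage water and between 1.02 and 1.94 CPM in home cage caffeine, so these groups did not overlap. It had between 0.730 and 2.54 CPM in learning water and between 0.546 and 1.28 CPM in learning caffeine. Slc16a8, a monocarboxylate transporter, was sparse, with 4 to 110 reads per library, and reached the 0.274 CPM of the abundance filter, which uses unscaled library totals, in 10 of 16 libraries. Clic6, a chloride intracellular channel protein, averaged 21.4 ± 11.5 CPM in home cage water and 9.45 ± 5.22, 8.23 ± 3.95 and 4.73 ± 1.17 CPM in the home cage caffeine group and, after learning, with water and with caffeine (SD, n = 4).

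Among the receptors and enzymes, Folr1 encodes a folate receptor, Prlr the prolactin receptor, Kl the co-receptor Klotho and Ace angiotensin-converting enzyme. Folr1 ranged from 2.86 to 17.4 CPM in home cage water and from 1.09 to 2.64 CPM in learning caffeine. Prlr had 6.83, 15.1, 13.0 and 19.6 CPM in home cage water and 3.25, 6.68, 4.65 and 4.05 CPM in home cage caffeine, and those groups did not overlap. It had between 5.19 and 9.06 CPM in learning water and between 4.29 and 5.28 CPM in learning caffeine. Ace had 15.6, 25.6, 23.7 and 38.6 CPM in home cage water and 13.0, 12.3, 11.8 and 15.4 CPM in learning water, which did not overlap. Kl was the flattest, with 36.4 to 71.0 CPM in home cage water and 24.8 to 40.5 CPM in the other 12 libraries. Tmem72, a transmembrane protein of little-known function, varied most on the log2 scale. It had 3.33, 13.7, 12.2 and 24.5 CPM in home cage water, 1.07, 2.07, 1.36 and 1.12 CPM in home cage caffeine, 2.61, 0.955, 0.752 and 3.55 CPM in learning water and 1.39, 0.578, 0.963 and 0.491 CPM in learning caffeine. Prlr shares 203 exon bases with Gm21973 on its own strand and Ace shares 295 with the antisense gene Gm11651, and the reads of these stretches cannot be assigned with certainty.

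Caffeine against water after learning, the one comparison read as a test, asked whether caffeine moved these transcripts in trained mice. None of the 10 genes passed at an adjusted p under 0.1 (edgeR's quasi-likelihood test with Benjamini-Hochberg adjustment), nor did any of the 17830 genes tested (0% called). All 10 were lower in learning caffeine, with a median log2 fold change of −0.68 over the 10 and −0.0043 over all genes. The largest was Slc4a5 at −1.26 ± 0.58 (SE), followed by Tmem72 at −1.19 ± 0.57 and Ttr at −1.08 ± 0.50, and the smallest was Kl at −0.20 ± 0.16. The adjusted p of Ttr was 0.999. At an unadjusted p under 0.05 there were 3 of the 10 (Ttr, Slc4a5 and Prlr), against 3.93% of all genes, and for none of the 10 did the groups stand apart, against 2.60% of all genes. DESeq2, fitted as an alternative, called 6 genes of the table and none of the 10.

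In the other comparisons, fold changes are descriptions, since they chose the genes or share libraries with those that did. Home cage caffeine had lower levels than home cage water for all 10 genes, with a median log2 fold change of −1.95, against −0.0031 over all genes. Tmem72 differed by −3.31 ± 0.52 (SE), Slc4a5 by −2.69 ± 0.53, Kcne2 by −2.48 ± 0.47, Ttr by −2.15 ± 0.52, Prlr by −1.58 ± 0.27 and Kl by −0.76 ± 0.16. No gene of the table was called (0%) by edgeR, and DESeq2 called 19 with 7 of the 10 among them. The unadjusted p was under 0.05 for 10 of 10, against 3.57% of all genes, and the groups did not overlap for 3 of 10 (Kcne2, Prlr and Tmem72), against 1.99% of all genes. Without home cage water replicate 6, 33 genes of the table were called, 9 of the 10 among them. Without learning water replicate 36 or 38, libraries outside the comparison that enter through the shared spread, Tmem72 was the 1 gene called.

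Learning water against home cage water had a median of −2.01 over the 10 genes and −0.0055 over all genes, with the same home cage libraries as the reference. All 10 were lower, and 7 of 10 were called lower (Ttr, Slc4a5, Slc16a8, Kcne2, Folr1, Ace and Tmem72), against 0.970% of all genes called. Tmem72 differed by −2.80 ± 0.49 (SE), Ttr by −2.12 ± 0.52 and Ace by −0.99 ± 0.20. The groups did not overlap for 1 of 10 (Ace), against 6.99% of all genes. The whole table had 173 calls, and 38, 54 and 37 without home cage water replicate 20 or learning water replicate 33 or 36, when 1 of the 10 (Tmem72) was called. There were 47 and 98 calls without home cage water replicate 11 or learning water replicate 38, with 4 of the 10, and 164 without home cage water replicate 6, with all 10. Learning caffeine against home cage caffeine had none of the 10 called, against 5.28% of all genes, and a median of −0.52. Of the 10, 9 were lower, Prlr was at 0.02 ± 0.28 and no gene's groups stood apart, against 10.9% of all genes. The difference between those responses was positive for all 10 genes, with a median of 1.18, and none was called (0% of all genes). The unadjusted p was under 0.05 for 6 of 10, against 3.63% of all genes, and DESeq2 called none of the 10.

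**Figure D2:**
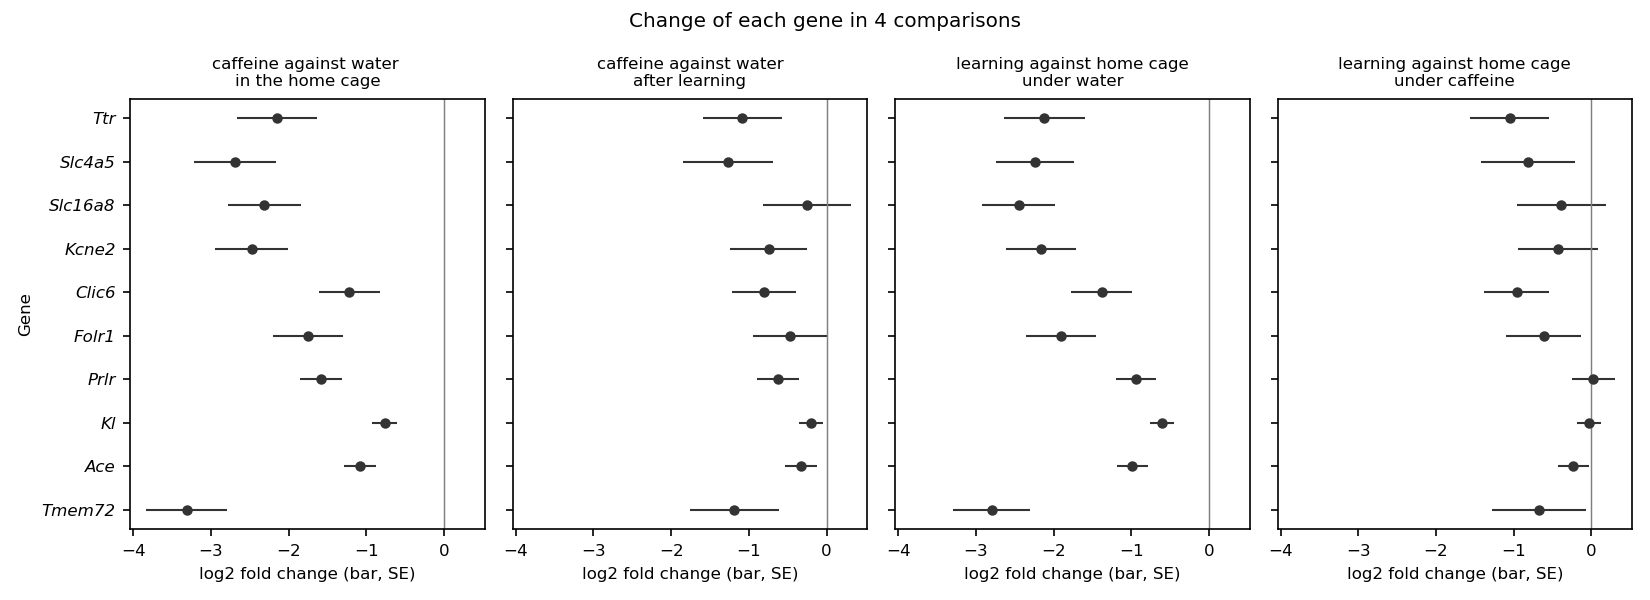
Log2 fold change of the 10 genes in 4 comparisons, each a point with its SE from the fit to 16 libraries. The differences were widest with home cage water as the reference, up to −3.31 for Tmem72, and all but Prlr under caffeine (0.02) lay below 0.

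Whether the levels differed at equal Ttr was asked in a fit with log2 Ttr as a covariate. Its slope is the change in a gene, in log2 units, for each log2 unit of Ttr within groups, so that 1 is a constant ratio. Slc4a5 (1.02 ± 0.08, SE) and Tmem72 (0.96 ± 0.08) lay within an SE of 1. The SE comes from the test against a slope of 0, so distances from 1 in SE are approximate. Kcne2 (0.88 ± 0.06), Folr1 (0.85 ± 0.07), Slc16a8 (0.83 ± 0.11) and Clic6 (0.74 ± 0.06) lay below it by more than an SE. Prlr (0.47 ± 0.05), Ace (0.33 ± 0.05) and Kl (0.26 ± 0.04) followed Ttr far less steeply. The median of the 9 was 0.83, with 6 of 9 over 0.5, against a median of 0.0035 and 131 of 17829 genes over 0.5 in the whole table. Of 30 further choroid plexus genes 20 were over 0.5 (median 0.61), the steepest being Mfrp, Cldn2, Aqp1 and Kcnj13 and the flattest Slc31a1, Cab39l, Slc29a4 and Slc4a2.

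By the medians of their lists, other cell types of the ventricle and its surroundings followed Ttr less. Single plexus genes were as flat as some of their markers, Kl (0.26) and Ace (0.33) among them. The 8 ependymal markers had a median slope of 0.41 and the 10 meningeal and stromal markers 0.28, and none of either list was over 0.5. The 8 endothelial, 7 tested thalamic and habenular and 8 hippocampal neuron markers had medians of 0.0024, 0.059 and −0.016. Ependymal markers summed to 35.5 to 54.1 CPM in home cage water, 38.1 to 69.5 in home cage caffeine, 18.7 to 79.2 in learning water and 26.2 to 49.1 in learning caffeine. The meningeal and stromal list summed to 122 to 234, 95.4 to 188, 103 to 148 and 93.4 to 173 CPM in the same order. None of these ependymal, stromal or endothelial markers was at 0 in any library, while Gbx2 of the thalamic list was. In the 2 comparisons of caffeine with water no gene of these lists or of the 30 further plexus genes was called. Neither comparison called any gene of the table (0%). For learning against home cage under water, 5 of the 30 were called lower, against 0.970% of all genes called. Under caffeine 2 of the 7 thalamic and habenular genes were called lower, against 5.28% of all genes. No other gene of these lists was called. The part of these cell types in the results was not tested.

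**Figure D3:**
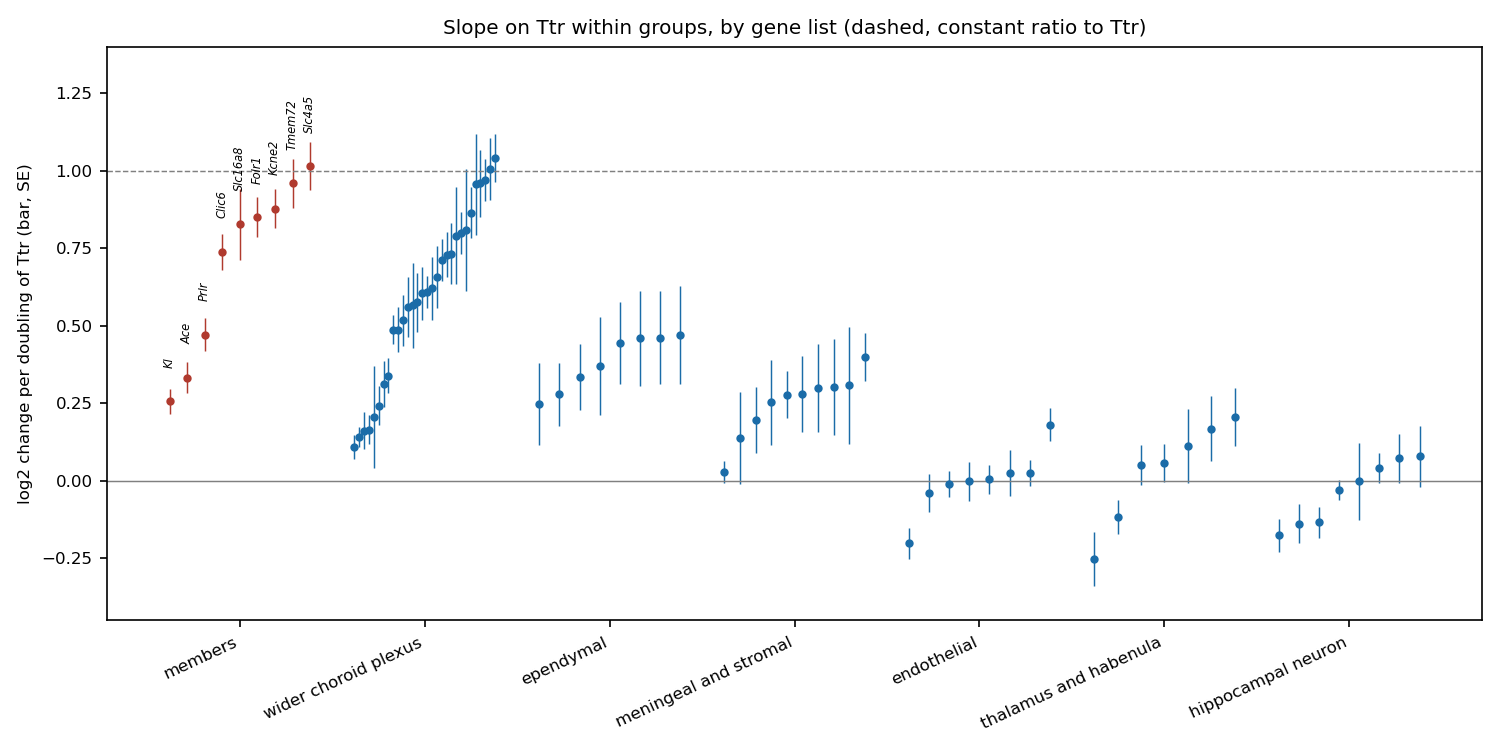
Slope on Ttr of each tested gene of 7 lists, with its SE; the dashed line at 1 is a constant ratio to Ttr. Slc4a5 and Tmem72 lie on that line, Kl, Ace and Prlr at 0.26 to 0.47, and neuronal markers around 0.

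By correlation of log2 CPM over the 16 libraries, which share depth and dissection and so give a description only, Slc4a5 (r = 0.987), Kcne2 (0.983) and Clic6 (0.982) were the genes of the 10 nearest to Ttr, and Prlr (0.915) and Kl (0.919) the farthest. The 10 genes outside the 10 with the highest r were Aqp1 (0.989), Mfrp, 1500015O10Rik, Sulf1, F5, Col8a1, Cldn2, Enpp2, Rbm47 and Col9a3 (0.961). Of these, 7 are on the list of 30 further plexus genes, and Aqp1 encodes a water channel and Cldn2 a tight junction protein. Slopes of Sulf1, Rbm47 and Col9a3 were 0.53, 0.50 and 0.40.

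**Figure D4:**
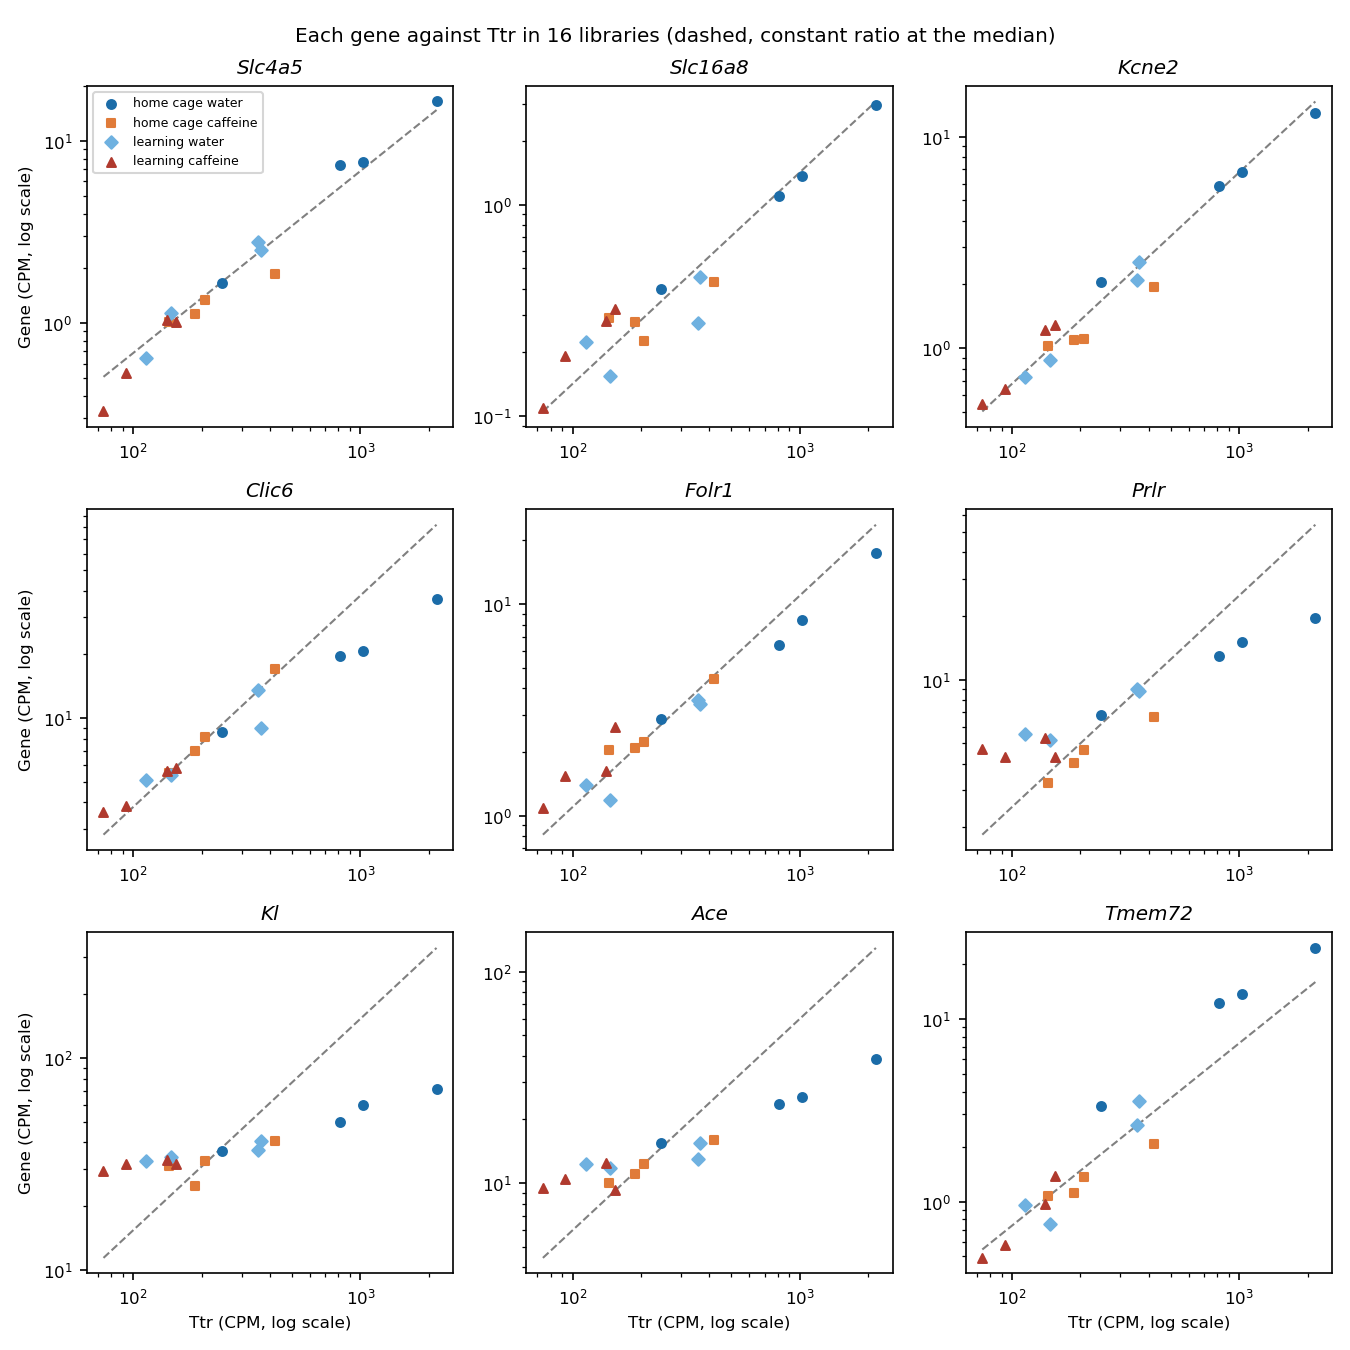
CPM of 9 genes against CPM of Ttr in the 16 libraries, both on log scales, with a dashed line at the median ratio. Slc4a5, Slc16a8 and Kcne2 stay near the line over the 29.2-fold range of Ttr, Kl, Ace and Prlr flatten where Ttr is low, and the 4 home cage water points of Tmem72 lie above it.

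The ratio to Ttr, as reads of a gene per 1000 Ttr reads, does not depend on library size. It differed in its spread among the genes. Over the 16 libraries the SD of log2 Kcne2 was 1.29 for CPM and 0.25 for its ratio, when counting error alone gives 0.21. For the Slc4a5 ratio it was 0.29 against 0.22 from counting, and for that of Slc16a8 0.42 against 0.45. Slc16a8 had few reads, so a difference in its ratio of that size would not be detectable in a single library. The Kcne2 ratio was higher in learning caffeine than in home cage caffeine by 0.47 ± 0.15 (SE) on the log2 scale. All 9 ratios were higher in that comparison, with a median of 0.47, and Prlr (1.04), Kl (0.98) and Ace (0.76) differed most. The SD of the ratio exceeded counting error for Folr1 (0.36 against 0.16), Clic6 (0.43 against 0.090) and Tmem72 (0.50 against 0.21). For Kl and Ace the ratio varied more than the gene itself, with an SD of 0.99 against 0.39 for the CPM of Kl and 0.82 against 0.57 for that of Ace, while Prlr was near equality at 0.72 against 0.74.

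A straight line of CPM on Ttr CPM put the level at zero Ttr at 29.5 ± 1.24 CPM for Kl (SE), which is 76.7% of its mean. For Ace it was 9.55 ± 0.50 CPM (61.9%), for Prlr 4.15 ± 0.51 (55.2%) and for Clic6 4.36 ± 0.74 (39.8%). For Folr1 it was 0.72 ± 0.11 CPM (18.4%). The 3 high home cage water libraries weigh on these means: as a share of the mean of the other 12 libraries the level was 89.0% for Kl, 79.8% for Ace, 75.6% for Prlr, 58.4% for Clic6 and 31.6% for Folr1, and as a share of the home cage water mean 54.3%, 36.9%, 30.5%, 20.4% and 8.15%. Kcne2, Slc16a8, Slc4a5 and Tmem72 had intercepts of 0.15 ± 0.12, 0.01 ± 0.03, −0.21 ± 0.15 and −0.67 ± 0.40 CPM, each within 2 SE of 0. As a share of the mean of the other 12 libraries these were 11.9%, 3.95%, −16.7% and −47.8%. The line has no term for group, and the Tmem72 ratio was higher in home cage water. The Tmem72 intercept therefore cannot be told apart from that group difference. These are extrapolations beyond the lowest library, at 74.0 CPM of Ttr. The ratio of Kl was lowest in home cage water, where Ttr was highest, and highest in learning caffeine, where Ttr was lowest. Kl had 75.4 ± 50.5, 150 ± 49.6, 184 ± 90.9 and 294 ± 89.0 reads per 1000 Ttr reads (SD, n = 4) for water and caffeine in the home cage and water and caffeine after learning.

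**Figure D5:**
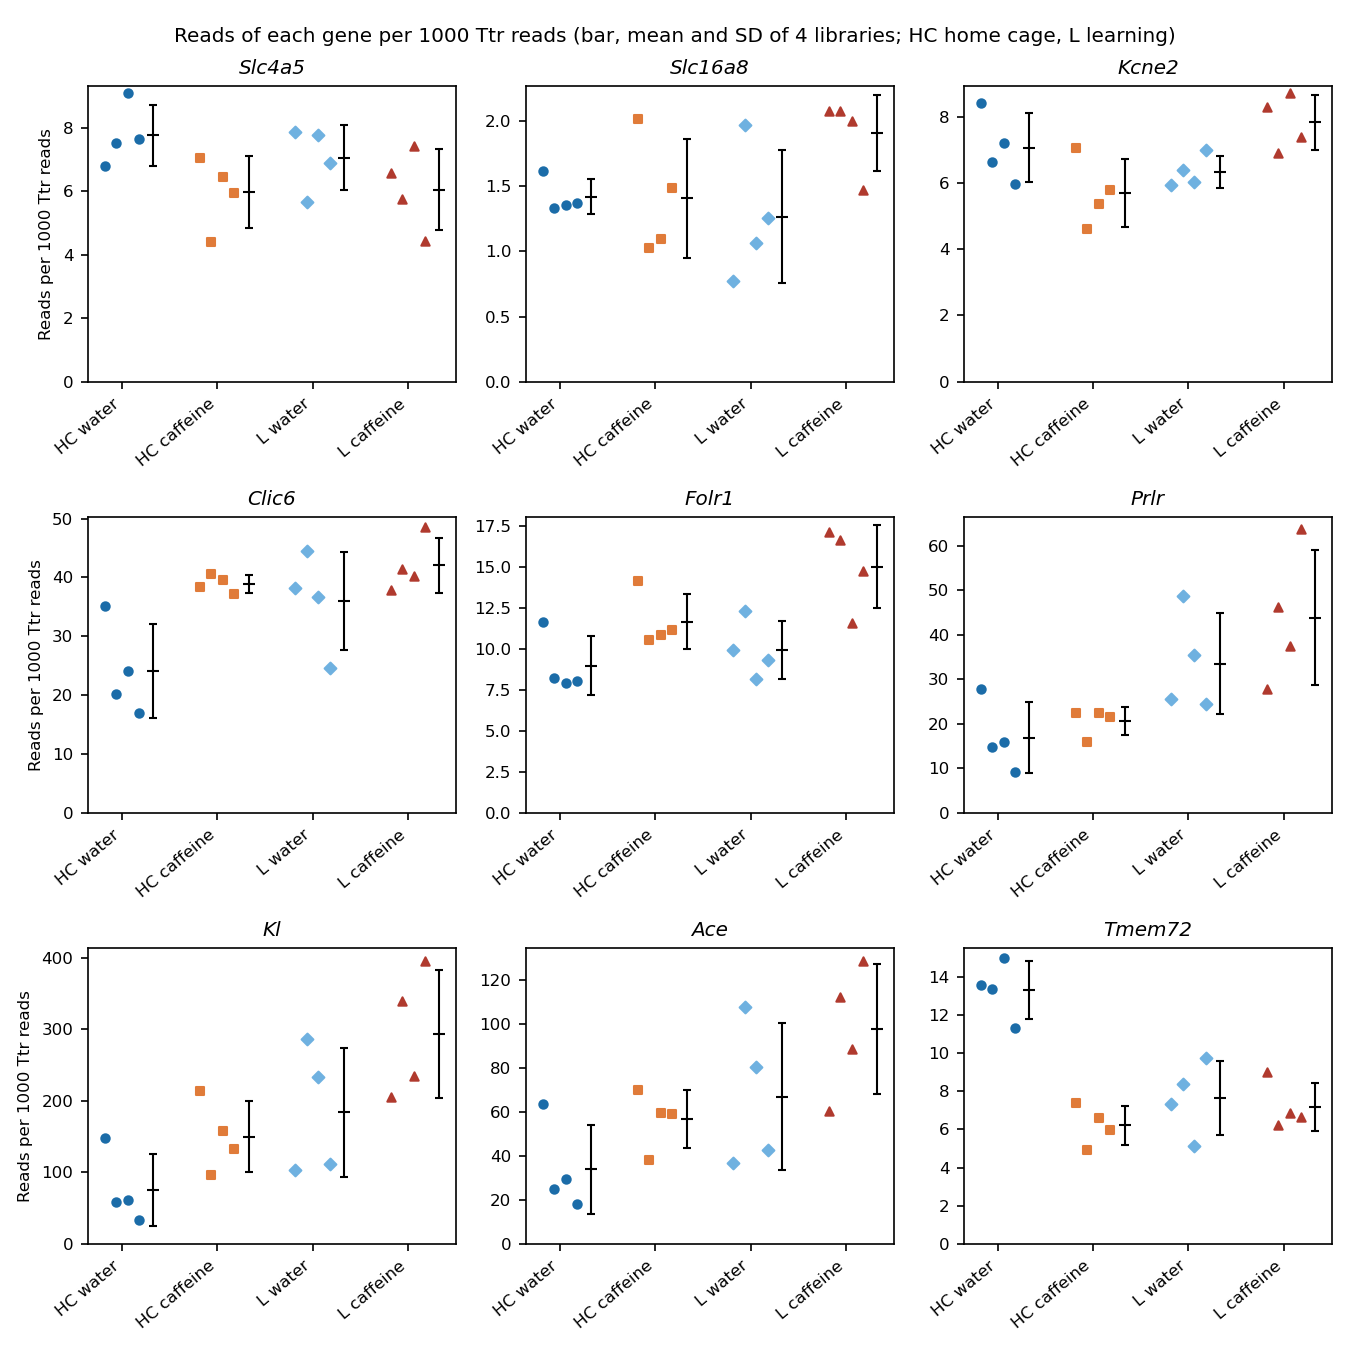
Reads of 9 genes per 1000 Ttr reads in every library, with the mean and SD of each group of 4. Tmem72 lies between 11.3 and 15.0 in home cage water and between 4.92 and 9.77 in the other 12 libraries, while Slc4a5 and Kcne2 overlap among all 4 groups.

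Tmem72 departed from a constant ratio in 1 group. It had 13.6, 13.3, 15.0 and 11.3 reads per 1000 Ttr reads in home cage water replicates 6, 8, 11 and 20. It had 7.39, 4.92, 6.58 and 5.94 in home cage caffeine, 7.36, 8.37, 5.13 and 9.77 in learning water and 8.99, 6.22, 6.86 and 6.63 in learning caffeine. All 4 home cage water libraries were above the 12 others. Of the other 8 ratios none separated these 4 libraries from the 12. Of the 30 further plexus genes none had its 4 home cage water ratios above the 12. Sostdc1 and Slc13a4, named after their values were seen, had them below. Mfrp, the steepest of the 30 on Ttr, had 7.70 to 8.54 reads per 1000 Ttr reads in home cage water and 4.16 to 7.88 in the 12. The share of all genes that separates in this way was not computed. Home cage water replicate 6, the 1 library of its group with Ttr in the range of the other groups (245 CPM), had 13.6, while learning water replicates 24 and 38 and home cage caffeine replicate 9, with 355, 363 and 421 CPM of Ttr, had 7.36, 9.77 and 4.92. On the log2 scale the home cage caffeine ratio was −1.11 ± 0.15 (SE) from that of home cage water, and it reached −1.20 without home cage caffeine replicate 2, the lowest value with a library left out. Learning water differed from home cage water by −0.83 ± 0.22. Since Tmem72 was chosen by the first of these groups' difference in CPM, neither is a test.

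At equal Ttr, Tmem72 was at −1.19 ± 0.24 (SE) in home cage caffeine against home cage water, Prlr at −0.61 ± 0.16, Kcne2 at −0.53 ± 0.19, Ace at −0.39 ± 0.14 and Clic6 at 0.28 ± 0.16, and none of the 9 genes was called (0% of all genes). For learning water against home cage water none of the 9 was called with the Ttr term, against 0.0954% of all genes, where 6 of these 9 had been called without it. Tmem72 was at −0.84 ± 0.22 in that fit. Home cage water replicates 8, 11 and 20 had more Ttr than any other library. The comparisons with home cage water therefore rest on 1 slope, shared by all groups, beyond the Ttr range these groups have in common. For learning caffeine against home cage caffeine 1 of 9 was called, Prlr at 0.52 ± 0.13, against 5.68% of all genes, and the difference between the responses had none (0%). The Prlr ratio was 22.5, 15.9, 22.5 and 21.5 reads per 1000 Ttr reads in home cage caffeine and 27.8, 46.3, 37.6 and 63.7 in learning caffeine, without overlap. Clic6 had 35.1, 20.2, 24.1 and 16.9 reads per 1000 Ttr reads in home cage water and 38.3, 40.7, 39.5 and 37.1 in home cage caffeine, also without overlap. The home cage caffeine libraries also took part in choosing Prlr, so neither its call nor its ratio difference is a test.

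After learning, where the ratios could be tested, 7 of 9 were higher with caffeine than with water and 2 (Slc4a5 and Tmem72) were lower. Of the 30 further plexus genes 27 had higher ratios to Ttr (median log2 difference 0.59). The directions depend on the denominator. Kcne2, Clic6 and Prlr differed by less than Folr1 (0.30, 0.25 and 0.38 against 0.60), so with Folr1 as the denominator they were lower with caffeine. Slc16a8, Kl and Ace stayed higher, and Slc4a5 and Tmem72 stayed lower. Ttr itself was lower by 1.08 on the log2 scale in learning caffeine, and a gene with a slope on Ttr under 1 then has a higher ratio with no difference at equal Ttr. How much of each ratio difference this makes up was not tested. None of the 9 passed p under 0.05 in an exact two-sided permutation test over the 8 libraries, which cannot go below 0.0286. The smallest p was 0.0571, for Folr1, Kcne2 and Slc16a8, at log2 differences of 0.60 ± 0.18 (SE), 0.30 ± 0.09 and 0.66 ± 0.31. Folr1 had 9.94, 12.3, 8.14 and 9.32 reads per 1000 Ttr reads in learning water and 17.1, 16.6, 11.6 and 14.7 in learning caffeine, overlapping at 1 library of each. Tmem72 differed by −0.07 ± 0.23 (exact permutation p = 0.771) and Slc4a5 by −0.24 ± 0.19 (exact permutation p = 0.257). With the Ttr term no gene was called (0%), and of the 9 only Folr1, at 0.45 ± 0.17, had an unadjusted p under 0.05, against 4.63% of all genes.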

How the data were processed

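Poly(A) RNA of 16 mouse dorsal hippocampi was measured by RNA-Seq. Per the labels and the study's methods, the authors made stranded poly(A) libraries, sequenced 50-base reads, aligned them with STAR, counted them per gene with HTSeq 0.6.1p1 on Ensembl release 90, and deposited raw read counts; the strand setting of the counting is not given in the sources used here. Identifiers were matched to symbols and coordinates through GENCODE M21 (81 of 35328 had no match).

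Here, genes were kept by filterByExpr (17830, all 10 choroid plexus genes among them) and tested with edgeR 4.0.16 (TMM, quasi-likelihood, all 16 libraries, 1 mean per group, Benjamini-Hochberg over all genes, called at adjusted p under 0.1). DESeq2 1.42.0 was an alternative. CPM are over TMM-scaled library totals. A second fit added log2 Ttr CPM. SEs of the edgeR fits are the size of the estimate over the square root of the F statistic of its test against 0. Log2 ratios to Ttr were compared by exact permutation. Scripts were tested on simulated data. All 10 genes, of the further plexus list the 4 steepest and 4 flattest on Ttr, and the 10 genes most correlated with Ttr are named. The genes and lists were chosen with earlier results of these data known. Mice were the replicates; library totals limit precision for sparse genes such as Slc16a8, and SEs cover the spread between mice.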

Additional observations from a re-analysis of the deposited data

Results flagged for a closer look

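A library lying far from the other 3 of its group was looked for in 76 groups of 4 values (CPM of 10 genes and ratios of 9 to Ttr), of which chance alone would give about 5%, and 7 were found; each gap below is the share of the group's range, and exceeds Dixon's 95% critical value for 4 samples. In home cage water, replicate 6 had high ratios to Ttr of Folr1 (11.7 reads per 1000 Ttr reads against 7.89 to 8.23, gap 0.911) and of Slc16a8 (1.62 against 1.33 to 1.37, gap 0.885, from 10 Slc16a8 reads). In home cage caffeine, replicate 9 was high in CPM of Folr1 (4.44 against 2.04 to 2.24, gap 0.914) and Kcne2 (1.94 against 1.02 to 1.11, gap 0.904) and low in the Prlr ratio (15.9 against 21.5 to 22.5, gap 0.856), with the highest Ttr of its group, 421 CPM. Replicate 2 of that group had a high Folr1 ratio (14.1 against 10.5 to 11.1, gap 0.832), and learning caffeine replicate 40 a low Slc16a8 ratio (1.47 against 2.00 to 2.07, gap 0.877, from 4 reads).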

How the results depend on the processing

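After learning, none of the 10 genes was called under any alternative run (DESeq2 size factors, DESeq2, other count filters, adjusted p under 0.05, the compared groups only, or any library left out). With the Ttr term, none of the 9 other genes was called with DESeq2 size factors, with the summed further plexus genes in place of Ttr, or with any library left out. In the home cage, 0 of 10 became 7 with DESeq2, when 19 of 21104 genes of the table were called. It became 9 with genes of at least 1 count tested (34 of 33354 called), and 0 to 9 with a library left out. For learning water against home cage water, 7 became 4 at an adjusted p under 0.05 (70 of 17830 genes called). It became 1 with the compared groups only (85 of 17050 called) and 1 to 10 with a library left out. With the Ttr term it became 0 (17 of 17829 called). That term was chosen after seeing the data and leaves Ttr itself untested, so that 6 of the 7 could be called. For learning caffeine against home cage caffeine, 0 became 1 with the Ttr term and stayed 0 to 0 with a library left out; the difference between responses stayed 0. Of the ratios after learning, 1 (Tmem72, lower with caffeine) passed with Folr1 as the denominator and 0 to 1 with a library left out: Slc16a8 without learning water replicate 33 and Kcne2 without learning caffeine replicate 27. In the other comparisons, many ratio differences moved beyond a bound set from their SE with Folr1 or the summed further plexus genes as denominator. For caffeine against water in the home cage 14 moved and 3 stayed. For learning against home cage 13 moved and 4 stayed under caffeine, and 9 moved and 8 stayed under water. The differences described for those comparisons therefore hold for Ttr as the denominator. The median level at zero Ttr, 18.4% of the mean, was 5.99% with Folr1 as the reference and 16.2% to 26.1% with a library left out. Intercepts of single genes depended on the fit. With weights of 1 over Ttr CPM or with Folr1 as the reference, 11 moved by more than their SE and 6 did not. The median slope on Ttr stayed between 0.77 and 0.87. The causes were not tested. No paired analysis was possible because the groups share no replicate numbers.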
